A study of Sus scrofa with 40 samples.

Results

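Growth signalling in skeletal muscle was examined through the genes *IGF1* and *RRAS2*, each measured by 1 probe of a pig muscle oligonucleotide array, BX672215.1_649 for *IGF1* and BX916059.1_520 for *RRAS2*. These 2 probes were taken by name out of 15198 on the array. *IGF1* encodes insulin-like growth factor 1, a secreted hormone made by the liver and locally by muscle, which binds a receptor tyrosine kinase and is known for promoting muscle growth and protein synthesis. *RRAS2* encodes a small GTPase of the RAS family, which sits at the inner face of the cell membrane, is active when bound to GTP, and passes signals from receptors to kinase cascades.

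The RNA came from the Longissimus muscle (LM) of castrated male pigs, 20 of the Basque (B) breed, a local French breed, and 20 of the Large White (LW) breed, selected for growth. In each breed 10 pigs were raised in a conventional (C) system, indoors on a slatted floor, and 10 in an alternative (A) system with bedding and access to an outdoor area. According to the methods, each litter gave 1 pig to each system, and pigs were slaughtered by weight (145 kg in the labels) rather than by age. B pigs were older than LW pigs at slaughter, and feed was given by weight in either breed. The study itself states that effects of breed, age and feeding are confounded. This limit holds for any difference given here as one of breed. Each of 40 arrays carried the RNA of 1 pig in Cy3 and a pool of all 40 pigs in Cy5, without exchange of dyes, and values are log2 ratios of pig over pool after subtraction of the array median. The precision is limited by the number of arrays and of litters, as the 20 pigs of a breed came from 10 litters. P values given here treat the pigs as independent, so those for breed may be too small if litter mates are alike. The correlation between pairs of arrays ranged from -0.338 to 0.826 over the tested probes, and the direction of the ratios was kept because the methods state the dyes. Deposited ratios followed Agilent's processed ratios of the same array with a correlation of 0.967 or more, except on the array of replicate 15 of the B pigs in A housing (0.684) and that of replicate 18 of the LW pigs in A housing (0.779). With the ratios used here, the deposited ratios had a correlation of 0.275 on the first of these 2 arrays and 0.849 on the second. These were the lowest and the highest of all 40 arrays. The array of replicate 8 of the LW pigs in C housing also stood apart, as the lowest of its group for *IGF1* and for the markers of muscle fibre, fibroblasts and mural cells described further on. For *RRAS2* it was the lowest by little (-0.29, next pig -0.26), and its array weight was 0.361. Without the arrays of replicates 15 and 18 the breed difference reported further on was -0.67 for *RRAS2* (BH adjusted P value 6.36e-05) and -0.18 for *IGF1* (0.0832).

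Both spots were dim. The median Cy3 signal of *IGF1* was 2.35 times its local background in B pigs and 2.58 times in LW pigs. For *RRAS2* the median was 2.21 times background in B pigs and 3.39 times in LW pigs. The *IGF1* spot stood well above background in Cy3 on 19 B arrays and 20 LW arrays, and so did that of *RRAS2*. Both probes therefore passed the filter on dim probes in each breed, and neither had a saturated or outlier spot. Since each gene rested on 1 probe of 60 bases and no other probe lay on the same contig, the sequences that define the measurement are given here, whole for *RRAS2* and as the first 30 bases for *IGF1*.
IGF1: tggcaggatcctttgctctgcacgagttac
RRAS2: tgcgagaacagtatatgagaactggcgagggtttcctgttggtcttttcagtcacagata
The GC content was 45% in each. The longest stretch that the *IGF1* probe shared with any other probe on the array was 12 bases on the same strand and 13 on the opposite strand, and for *RRAS2* it was 13 bases on either strand.

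The level of *IGF1*, the secreted ligand, overlapped widely between breeds. In B pigs the log2 ratio of *IGF1* was -0.31 at the lowest, 0.072 at the median and 0.62 at the highest in C housing, and -0.18, 0.030 and 0.37 in A housing. In LW pigs it was -0.47, 0.41 and 0.72 in C housing, and -0.19, 0.16 and 0.41 in A housing. The group means, with their SD over 10 pigs, were 0.37 ± 0.34 in LW pigs in C housing, 0.17 ± 0.18 in LW pigs in A housing, 0.098 ± 0.28 in B pigs in C housing and 0.056 ± 0.16 in B pigs in A housing. Each step between neighbours in this order was smaller than the larger SD of the pair. Most LW pigs, 18 of 20, lay above the pool, as against 12 of 20 B pigs, and the LW median exceeded 17 of 20 B values. The place of B against the pool depended on the processing, since 8 or 9 B pigs lay above it with processed signals, the deposited ratios, loess or no background correction, a comparison chosen after seeing the data, and the B median went from 0.030 to values between -0.014 and -0.16. All 20 B pigs lay above the lowest LW pig, and 2 LW pigs lay above the highest B pig.

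The level of *RRAS2*, the GTPase, separated the breeds more. In B pigs the log2 ratio of *RRAS2* was -0.45 at the lowest, -0.32 at the median and 0.056 at the highest in C housing, and -0.54, -0.33 and 0.012 in A housing. In LW pigs it was -0.29, 0.35 and 1.46 in C housing, and -0.31, 0.16 and 0.98 in A housing. The LW median exceeded all 20 B values, and 13 of 20 LW pigs lay above the highest B pig, so that 7 LW pigs overlapped with B. These 7 LW pigs were also the LW pigs below the pool, 2 from C housing and 5 from A housing. The highest of them was at -0.059 and the next LW pig was at 0.26, and no LW pig lay between these values. The LW pig at -0.059 and the highest B pig in A housing, at 0.012, were those of the 2 arrays set apart above, and the values next below were -0.099 in LW and -0.17 in B pigs, both in A housing. Of the B pigs 18 of 20 lay below the pool. With processed signals, the deposited ratios, loess or no background correction all 20 did, a comparison likewise chosen after seeing the data. Group means (± SD, n = 10) were 0.37 ± 0.48 and 0.31 ± 0.53 in LW pigs in C and A housing, and -0.29 ± 0.16 and -0.31 ± 0.16 in B pigs in C and A housing. The means of the 2 housing systems of a breed differed by less than the SD, whereas the step from LW to B exceeded it.

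**Figure D1:**
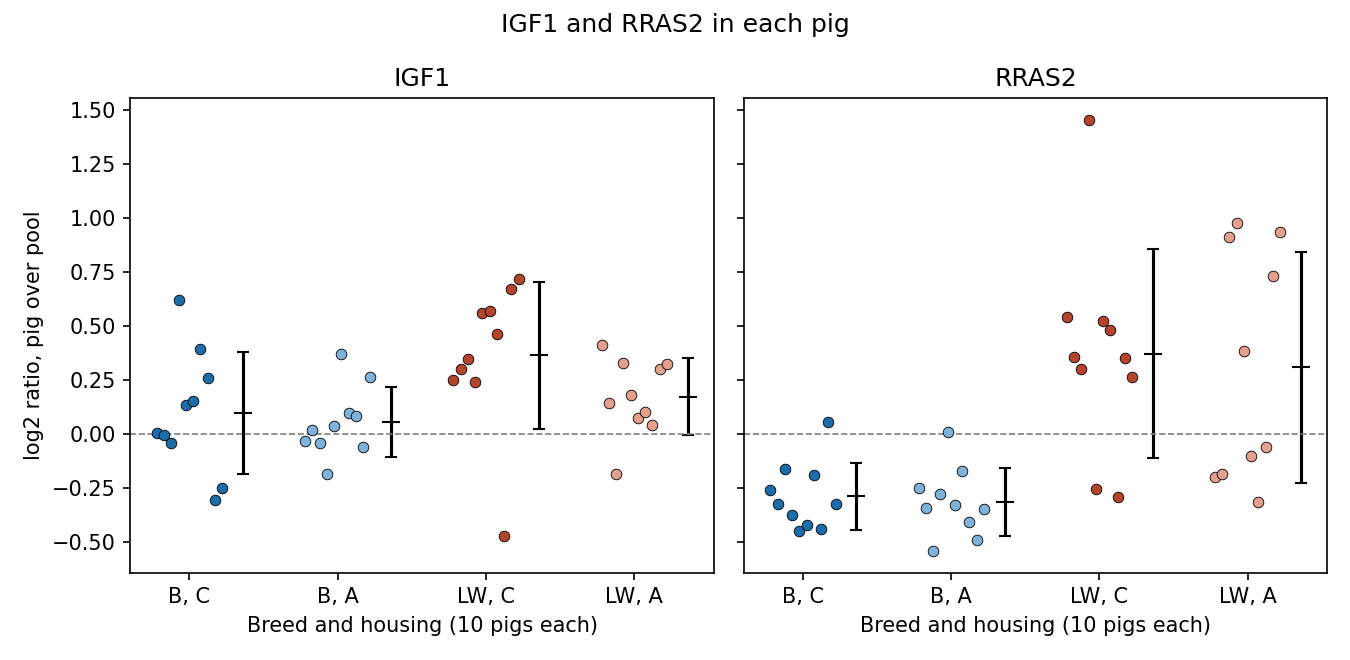
Log2 ratio of pig over pool for IGF1 and RRAS2 in each of 40 pigs, by breed (B, LW) and housing (C, conventional; A, alternative), 1 point per pig, with the mean and SD of each group of 10 as a bar beside the points and the pool as the dashed line. For RRAS2, 18 of 20 B pigs lie below the pool and 13 of 20 LW pigs above it, whereas IGF1 overlaps between the groups.

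The first comparison asked whether the breeds differed in each gene. *RRAS2* was lower in B pigs, with a difference of B minus LW of -0.64 (SE 0.12) on the log2 scale averaged over both housing systems, an FC of 1.56 in favour of LW (limma, BH adjusted P value 0.000140, adjusted over 12222 tested probes). For *IGF1* the difference was -0.18 (SE 0.076), an FC of 1.13 in favour of LW, and it did not pass the threshold of 0.05 (unadjusted P value 0.0238, BH adjusted P value 0.0891). Hence 1 of the 2 genes was called, against 21.1% of all tested probes called in either direction and 9.49% called lower in B. Both genes belong to the genes that the study had chosen on these animals as higher in LW. Of the 683 tested probes of that choice 505 were called lower in B, so the direction of *IGF1* and *RRAS2* on these arrays is no independent evidence. The study also measured *IGF1*, but not *RRAS2*, by quantitative PCR on RNA of the same pigs. It reports a breed difference of *IGF1* there too, with an FC similar to that of its array. In a muscle sample, fewer cells of a type and less RNA per cell cannot be told apart. With Agilent's processed signals the differences were larger, -1.29 (FC 2.45, BH adjusted P value 2.72e-05) for *RRAS2* and -0.41 (FC 1.33, 0.0721) for *IGF1*. With the authors' deposited ratios they were -1.21 (FC 2.32) and -0.35 (FC 1.27). The ratios used here carry an offset of 50 in both channels, which by arithmetic draws ratios of dim spots toward 1. The FC of 1.56 and 1.13 hold for this offset, and its part in their size was not tested. *IGF1* passed the threshold when arrays were weighted by quality (-0.20, BH adjusted P value 0.0239) and when 1 of 3 pigs was left out, namely LW conventional replicate 8 (-0.23, BH adjusted P value 0.0153), B conventional replicate 4 (-0.20, 0.0449) or B alternative replicate 20 (-0.20, 0.0464).

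Within the slides, *RRAS2* had a lower mean in B than in LW pigs on each of 7 slides, by -0.23 at the least and -0.95 at the most. *IGF1* had a lower B mean on 5 of 7 slides, and the difference ranged from -0.48 to 0.13. By scan day, the difference of *RRAS2* was -0.23 on the first day (3 B and 3 LW pigs), -0.65 on the second (10 and 10) and -0.80 on the third (7 and 7). That of *IGF1* was -0.44, -0.11 and -0.20 on the same days. The sign was thus shared by the 3 scan days for both genes, while the order of the 2 genes was turned on the first day.

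**Figure D2:**
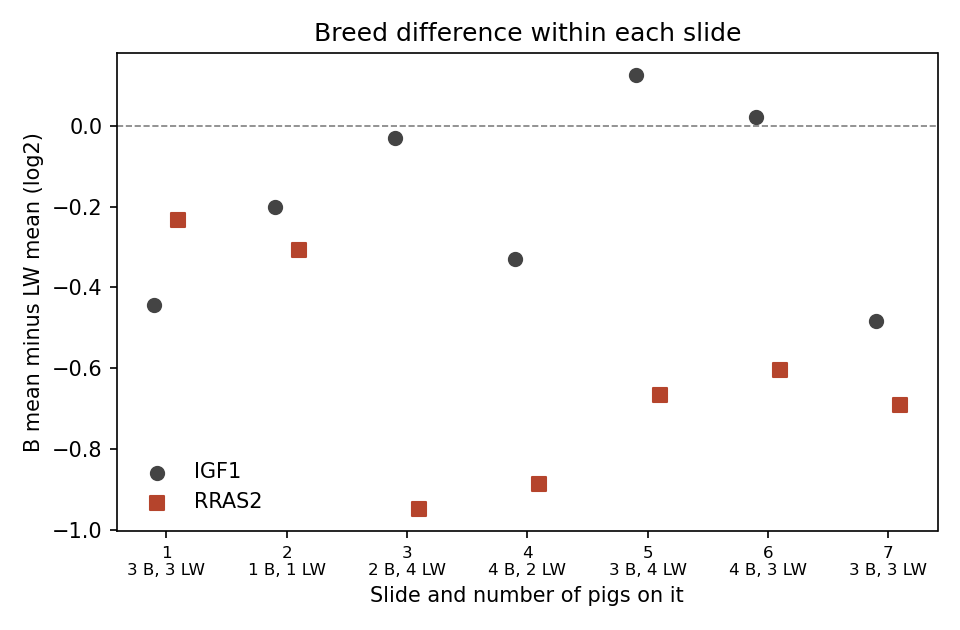
Mean log2 ratio of B pigs minus that of LW pigs within each of 7 slides for IGF1 (circles) and RRAS2 (squares), with the number of pigs of each breed under the slide number. RRAS2 is below 0 on each slide, and IGF1 on 5 of 7.

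No effect of housing passed the test in either gene. In C housing the breed difference of *RRAS2* was -0.65 (SE 0.17, BH adjusted P value 0.0110), and the LW median of that system exceeded all 10 B values. In A housing it was -0.63 (SE 0.17, BH adjusted P value 0.0147), again with 10 of 10 B values under the median of LW. The breed difference of *IGF1* was -0.25 (SE 0.11, BH adjusted P value 0.147) in C housing and -0.11 (SE 0.11, 0.604) in A housing, with 9 and 8 of 10 B values under the median of LW. Among the tested probes, 8.24% were called in C housing (2.97% lower in B) and 7.58% in A housing (4.52% lower in B). The change of the breed difference from C to A housing, tested as the interaction, was 0.14 (SE 0.15, unadjusted P value 0.351) for *IGF1* and 0.024 (SE 0.24, unadjusted P value 0.920) for *RRAS2*. Neither was called, and limma called 0% of all probes for the interaction, with 312 of 12222 at an unadjusted P value under 0.05. The difference of A minus C housing, averaged over breeds, was -0.10 (SE 0.079, unadjusted P value 0.203) for *IGF1* and 0.026 (SE 0.12, 0.834) for *RRAS2*. For housing limma likewise called 0% of the probes, with 336 at an unadjusted P value under 0.05, and a two-step analysis of variance, with slide adjusted first for probes where it was significant (neither *IGF1* nor *RRAS2*), called 0 for either term, with 320 for housing and 527 for the interaction.

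The breed difference was larger in *RRAS2* than in *IGF1*. The within-array difference of *RRAS2* minus *IGF1* had a mean of -0.38 ± 0.30 (SD, n = 20) in B pigs and 0.072 ± 0.53 in LW pigs. It lay below 0 in 19 of 20 B pigs and in 10 of 20 LW pigs. The difference between breeds was -0.45 (two-sided permutation test with 100000 permutations of breed within housing, P value 0.00196), and -0.46 (SE 0.14) with slide in a linear model. It was -0.85 with Agilent's processed signals (permutation P value 0.00303) and -0.83 with the deposited ratios (0.00223), with 17 of 20 B pigs below 0 in each. Since each ratio is relative to the same pool, this compares changes and not the levels of the genes.

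The spread between pigs also differed by breed in *RRAS2*. The mean absolute deviation of *RRAS2* from the median of its breed and housing group was 0.11 in B pigs and 0.39 in LW pigs, 3.47 times as large in LW (two-sided permutation test, P value 0.000230). For *IGF1* it was 0.17 in B pigs and 0.18 in LW pigs, and the difference of -0.019 was not larger than permuted breed labels gave (P value 0.728). The smaller spread of *RRAS2* stood in the breed with the dimmer spot, at 2.21 times background against 3.39 times, and the part of this signal level in the spread was not tested. With Agilent's processed signals the mean absolute deviation of *RRAS2* was 0.25 in B and 0.67 in LW pigs (P value 0.00175), and with the deposited ratios it was 0.29 and 0.64, a ratio of 2.24 (P value 0.00521).

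The last comparison asked whether the 2 genes varied together between pigs. Within B pigs Pearson's r of *IGF1* and *RRAS2* was -0.267 (n = 20, permutation P value 0.256) and Spearman's rho was -0.215 (P value 0.362). Within LW pigs r was 0.151 (n = 20, permutation P value 0.528) and rho was 0.122 (P value 0.610). Since *RRAS2* left a gap among the LW pigs, the r within LW spans both sides of that gap. After breed, housing, their interaction and slide were removed, r was 0.0310 over 40 pigs (permutation P value 0.850) and rho was -0.133 (P value 0.410). No relation passed the threshold, and the sign of r was not stable. Without the 2 pigs farthest from the *IGF1* median, B conventional replicate 10 and LW conventional replicate 8, the r over the remaining 38 was -0.180 (permutation P value 0.280). Without the 2 farthest pigs of each breed, r was -0.367 in B (permutation P value 0.134) and 0.116 in LW (0.646). Within groups of 10 pigs r was -0.494 in B pigs in C housing (permutation P value 0.149), 0.068 in B pigs in A housing (0.854), 0.186 in LW pigs in C housing (0.542) and 0.077 in LW pigs in A housing (0.838). By scan day, the adjusted r was -0.201 over 6 pigs (exact permutation P value 0.721), 0.107 over 20 (0.648) and -0.072 over 14 (0.805). Spearman's rho ranged from -0.503 in B pigs in C housing to 0.212 in B pigs in A housing over these sets, and the lowest permutation P value of either measure was 0.118. Of the 26 correlations computed, 0 had a permutation P value under 0.05, and every BH adjusted P value was 0.854. Among 11506 other probes measured on all arrays, 51.8% had a lower r with *IGF1* than *RRAS2* had.

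**Figure D3:**
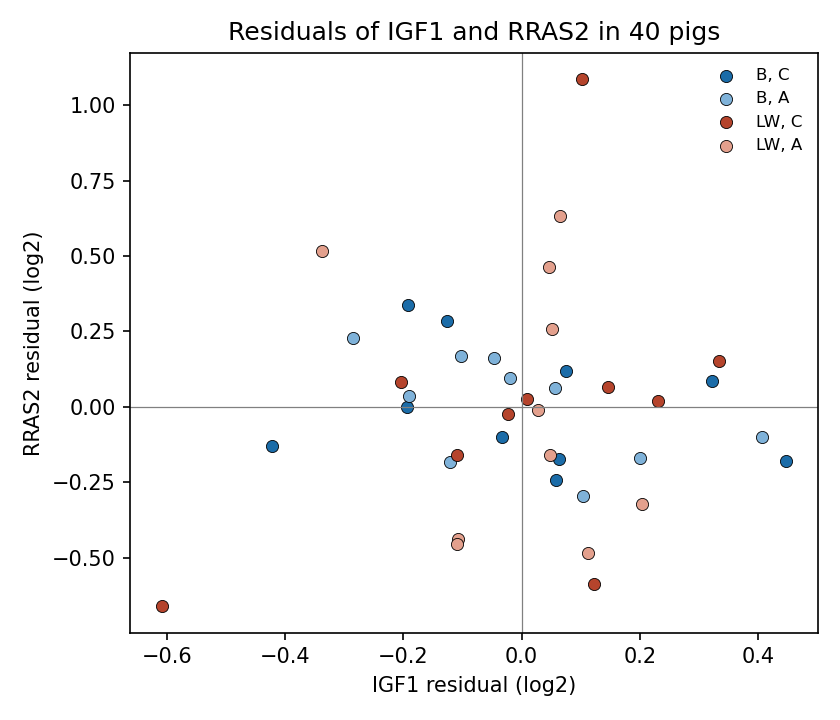
IGF1 against RRAS2 in 40 pigs as residuals of the log2 ratio after removal of breed, housing, their interaction and slide, 1 point per pig, with colours for breed and housing. The points scatter around both zero lines, with Pearson's r of 0.0310.

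The probes that followed *IGF1* most closely over 40 pigs were sought among 664 probes with a gene symbol. Symbols were used for the genes of that same choice only. A table of the study with genes higher in B was at hand but was not used here, as its probe column did not follow its other columns, so such genes are absent from this ranking and from the markers below. On the same residuals, the highest r with *IGF1* belonged to *FSCN1*, which bundles actin (0.800), *MARCKS*, a substrate of protein kinase C (0.789), *CD248*, a surface protein of stromal cells (0.771), *ASPN*, a matrix proteoglycan (0.765), and *CXCR4*, a chemokine receptor (0.764). Each of these 5 had an r with *IGF1* of 0.689 or more within either breed. The lowest r with *IGF1* was found for *POMC* (-0.621), *BEX1* (-0.597) and *BLOC1S2* (-0.585). For *RRAS2* the highest r was found for *ASNS*, asparagine synthetase (0.623), *AKAP5*, an anchor of protein kinase A (0.614), *ALDH18A1*, an enzyme of proline synthesis (0.553), the homeobox gene *HOXD8* (0.527) and *CKAP4* (0.501). Within LW pigs these r with *RRAS2* lay between 0.572 and 0.664, and within B pigs between 0.213 and 0.408. The lowest r with *RRAS2* was found for *CYBASC3* (-0.500), *TEX264* (-0.499) and *LDLRAD3* (-0.475). Within LW pigs these 3 had an r of -0.522 or lower, and within B pigs they had -0.304, 0.109 and -0.299, so that *TEX264* changed sign between the breeds. Over all 11506 probes, 95% had an r under 0.475 with *IGF1* and under 0.276 with *RRAS2*. These r are descriptions, and the points share the pool, the arrays and the array median.

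The muscle samples also hold cells other than muscle fibres, and 3 of 28 marker genes of such cells had a symbol, as had 2 of 9 markers of the fibre itself. Among fibroblast markers, r with *IGF1* was 0.664 for *DCN* and 0.632 and 0.521 for both probes of the collagen gene *COL1A2*. With *RRAS2* the same probes had an r of -0.025, 0.044 and -0.0072. The mean log2 ratio of these 3 probes had a median of 0.26 in LW pigs in C housing and 0.15 in A housing, against -0.16 and -0.24 in B pigs. The muscle fibre genes *ACTA1* and *MYH1* had an r of 0.523 and 0.346 with *IGF1*, and *PDGFRB*, a marker of mural cells, had 0.521. With *RRAS2* their r was 0.293, -0.0049 and 0.116, that of *ACTA1* above the 0.276 under which 95% of all probes lay. Within B pigs these r with *RRAS2* were -0.184, -0.157 and -0.261, and within LW pigs 0.397, 0.039 and 0.258. Each of them thus changed sign between the breeds. The mean log2 ratio of *ACTA1* and *MYH1* had a median of -0.39 and -0.40 in LW pigs in C and A housing, against -0.90 and -0.96 in B pigs. For *PDGFRB* the medians were -0.28 and -0.26 in LW pigs, against -0.49 and -0.63 in B pigs. Of the 6 marker probes 3 were called lower in B (*MYH1*, *PDGFRB* and 1 probe of *COL1A2*), while *DCN*, *ACTA1* and the other probe of *COL1A2* were not called. Among all tested probes with a symbol 505 of 683 were called lower in B, and among all tested probes 9.49%. The direction is fixed by the choice of genes with a symbol. The part of these markers in the breed differences of *IGF1* and *RRAS2* was not tested. For adipocytes, immune cells and satellite cells 0 markers had a symbol, so their levels were not analysed here.

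Other growth signalling genes were given by the same symbols, which covered 12 of 232 genes listed beside *IGF1* and *RRAS2*. Of their 13 probes 10 were called lower in B and 0 higher, with a median difference of -0.38. This direction is no independent evidence, since of all 683 tested probes with a symbol 505 were called lower and 0 higher, with a median of -0.26, while all tested probes had a median of 0.0011. Next to *IGF1* among secreted proteins, the binding protein *IGFBP7* differed by -0.065 (BH adjusted P value 0.540) and had an r with *IGF1* of 0.508, while the growth factor *PDGFA* was called lower in B (-0.38, BH adjusted P value 0.00345) and *HBEGF* was not called (-0.38, 0.0747). Within A housing *HBEGF* was called lower in B (limma, -0.75, BH adjusted P value 0.0302), and within C housing it was not (-0.017, 0.972). Its interaction was not called (BH adjusted P value 0.974). Next to *RRAS2* in the RAS family, *RALB* was lower in B by -0.51 (BH adjusted P value 1.03e-06) and had an r with *RRAS2* of -0.017. Of the genes listed with the receptors, *PDGFRB* (-0.31) and *TGFBR3* (-0.58) were called lower in B, and the receptor-like gene *PDGFRL* (-0.12) was not called. In translation control, *EIF4EBP1*, a repressor of cap-dependent translation, was lower in B by -0.17 and had an r with *IGF1* of -0.580, and *EEF2K*, the kinase of elongation factor 2, was lower by -0.44.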

How the data were processed

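Per the file headers, the deposited scanner files hold the mean intensity and local background of each spot and Agilent's processed intensity, made with Agilent Feature Extraction. Normalized log2 ratios per array, deposited by the authors, had column medians between -0.0148 and 0.0261; their scaling between arrays was not settled here.

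Intensities of all spots were corrected by normexp (offset 50) in limma 3.58.1 (R 4.3.3), log2 ratios of Cy3 over Cy5 were centred on the array median, and control spots and 2396 outlier spots were left out. A probe entered the fit if 10 or more arrays of B or of LW had it well above background in the pig's channel, and the 12222 such probes were fitted with breed, housing, their interaction and slide (7 slides), and P values were adjusted by Benjamini-Hochberg. Litter and session of slaughter, absent from the labels, were not modelled. Permutation tests were two-sided; scripts were tested on simulated data. The members and lists were chosen with earlier results of these data known. Named genes were the members, at most 12 list genes with a symbol, and per member the 5 highest and 3 lowest r. Symbols came from the study's table of genes higher in LW. Alternatives took no background correction, processed signals, loess, Cy3 alone, the deposited ratios, no filter on dim probes or one on all 40 arrays, outlier spots kept, saturated spots left out, the most variable probes, other slide terms, the two-step analysis, array weights, a replicate block, or fewer arrays.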

Additional observations from a re-analysis of the deposited data

Results flagged for a closer look

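In LW pigs in C housing, replicate 8 had an *IGF1* log2 ratio of -0.47, with the next pig at 0.24, and this gap was 0.597 of the range of the group. The same pig was the lowest of its group also for the muscle fibre markers (-2.13, next pig -0.95), the fibroblast markers (-0.82, next pig -0.13) and *PDGFRB* (-0.69, next pig -0.44), with an array weight of 0.361, and for *RRAS2* it was the lowest by little (-0.29, next pig -0.26). In the same group, replicate 4 had an *RRAS2* log2 ratio of 1.46, with the next pig at 0.54, a gap of 0.524 of the range. Both exceeded Dixon's 95% critical value for 10 samples. Over the 8 sets of pigs examined (2 genes in 4 groups), chance gives such a gap in about 5% of sets.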

How the results depend on the processing

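The breed difference of *RRAS2* was negative and called under all 16 alternatives (-0.59 to -1.29) and with each of 40 arrays left out in turn. That of *IGF1* was negative under the same alternatives and was called under 1, array weights (-0.20). Leaving out single arrays gave *IGF1* differences from -0.16 to -0.23, called in 3 of 40 cases. BH adjusted P values of *IGF1* ranged from 0.0239 to 0.188 over the alternatives.

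The spread of *RRAS2* was 2.24 (deposited ratios) to 4.27 times (no background correction) as large in LW as in B under 4 alternatives chosen after seeing the data, with permutation P values of 0.00521 or less.

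Leaving out single arrays turned the sign of some uncalled values, such as the interaction of *RRAS2* (-0.022 without replicate 8 of the B pigs in C housing). Under the alternatives, uncalled values changed sign as follows, and the cause was not tested. The housing difference of *RRAS2* was -0.014 without background correction, -0.099 with Agilent's processed signals, -0.0018 with the deposited ratios, -0.045 without slide, -0.031 with slide as a random block, -0.021 with scan day and -0.045 in the two-step analysis. The interaction of *RRAS2* was -0.031 without background correction, -0.20 with processed signals, -0.014 with loess, -0.12 with Cy3 alone, -0.057 with the deposited ratios, -0.052 with array weights and -0.034 without the 2 arrays whose deposited ratios followed Agilent's processed ratios least, an alternative chosen after seeing the data. Likewise added, the breed difference in spread of *IGF1* was 0.012 with processed signals and 0.0072 with the deposited ratios, and the adjusted correlation was -0.201 on the first scan day and -0.072 on the third. Without the 2 pigs farthest from the *IGF1* median it was -0.180.

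With the replicate block (the number of the labels, with slide) the breed difference was -0.59 for *RRAS2* (BH adjusted P value 0.00224) and -0.17 for *IGF1* (0.188), and 2197 probes were called against 2583. Residuals of same-numbered pigs had a median r of 0.0435, over 0.1 in 5 of 20 pairs, so no clear pairing by number across the breeds was seen. Litters lie within a breed by the methods, so this check could not bear on litter mates. Whether the numbers pair litter mates across housing within a breed was not tested.

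Over the array, probes called lower in B numbered 777 (the most variable probes) to 1782 (loess) across alternatives against 1160. In C housing 732 to 1731 probes were called against 1007 (lower in B, 225 to 742 against 363), and in A housing 733 to 2181 against 926 (429 to 1036 against 553). With probes well above background on all 40 arrays neither gene had a value, as each missed this on 1 array. Both spots lay near background, and the part of this in the size of the differences was not tested.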
